A study of Mus musculus with 6 samples.

Results

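The Kruppel-like factors (KLFs) described here are 9 genes, Klf2, Klf3, Klf4, Klf5, Klf6, Klf9, Klf10, Klf13 and Klf15, out of 20141 genes that the arrays could name. They were chosen by gene symbol, and every non-control probe whose RefSeq accession belongs to one of them was used, which gave 1 probe per gene, each printed as 1 spot per array. RNA came from heart ventricles of male mice on a C57bl/6j background, aged 11 to 12 weeks. In 3 Tead1 icKO mice both Tead1 alleles were floxed (Tead1F/F) and the Myh6-CreER transgene supplied a Cre recombinase that is made in cardiomyocytes and needs tamoxifen. The 3 control mice carried floxed Tead1, and the design text gives tamoxifen for both groups. Controls have no Cre in their labels. An effect of Cre itself and one of losing Tead1 thus cannot be told apart, and non-cardiomyocytes of the icKO ventricle are not targeted by this transgene.

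KLFs are transcription factors that bind GC-rich and CACCC-type DNA through a carboxy-terminal array of C2H2 zinc fingers. Their remaining parts differ, and some recruit coactivators while others recruit the corepressors CtBP or Sin3. In the heart Klf15 is known as a factor of cardiomyocyte metabolism with a daily rhythm, Klf2 and Klf4 as flow-responsive factors of endothelium, Klf5 and Klf6 as factors tied to tissue remodelling, Klf10 as an early gene of TGF-beta signalling, and Klf9 as an early gene of glucocorticoid signalling.

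The 250 bases before the start of transcription are shown for Klf15, Klf13 and Klf6, the members that were called higher in icKO ventricles. They come from RefSeq in build GRCm38.p6 and are written 5′ to 3′ on the strand of the gene. Capitals mark matches, on either strand, to an E-box (CACGTG) or a KLF box (CACCC). The Klf15 window is chr6:90462326-90462575 on the plus strand, the Klf13 window chr7:63938916-63939165 on the minus strand, and the Klf6 window chr13:5861239-5861488 on the plus strand.
Klf15: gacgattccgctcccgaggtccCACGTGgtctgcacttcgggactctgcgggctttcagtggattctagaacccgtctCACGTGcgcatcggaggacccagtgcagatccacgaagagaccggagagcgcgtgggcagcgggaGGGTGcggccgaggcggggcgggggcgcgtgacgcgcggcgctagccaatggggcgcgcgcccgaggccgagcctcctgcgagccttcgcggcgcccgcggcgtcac
Klf13: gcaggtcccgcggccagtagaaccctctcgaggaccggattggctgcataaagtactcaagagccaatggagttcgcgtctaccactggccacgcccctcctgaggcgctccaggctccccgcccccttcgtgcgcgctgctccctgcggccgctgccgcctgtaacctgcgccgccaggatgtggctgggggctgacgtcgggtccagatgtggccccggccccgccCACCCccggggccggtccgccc
Klf6: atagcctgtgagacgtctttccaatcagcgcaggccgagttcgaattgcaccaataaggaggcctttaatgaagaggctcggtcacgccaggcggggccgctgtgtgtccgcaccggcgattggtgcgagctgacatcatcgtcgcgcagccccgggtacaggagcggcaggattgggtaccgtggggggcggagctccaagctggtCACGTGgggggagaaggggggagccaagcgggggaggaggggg

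Promoter windows were found for 7 of the 9 members, and Klf5 and Klf10 had none in the table. The Klf15 window held 2 E-boxes, 228 and 172 bases before the start, and 1 KLF box. E-boxes are bound by several basic helix-loop-helix factors, among them the clock pair BMAL1 and CLOCK. The Klf6 and Klf4 windows held 1 E-box each, so 3 of 7 windows had at least 1, against 6.02% of all 32851 promoter windows of that length. Windows with 2 or more E-boxes made up 0.43% of all. A KLF box was present in 5 of 7 member windows, with 5 in that of Klf3, and in 52.0% of all windows. The TEAD core GGAATG was in none of the 7 windows and in 12.6% of all. Member windows were 59.6% to 78.4% G and C, against a median of 52.4%, and no base was shared by matches of different motifs. These matches describe letters only.

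Each level below is the log2 of the processed spot signal less the array's 75th percentile, so 0 stands for that percentile of the array's spots, and levels of different probes are not set against each other. A gene was called when the limma adjusted p (Benjamini-Hochberg over 22297 features) was below 0.05. Of all features 44.3% were called, 15.9% higher and 28.4% lower. The groups did not overlap in 59.1%, with icKO above in 21.5% and below in 37.6%. The median feature differed by -0.14. The 75th percentile taken off was a signal of 189, 233 and 215 on control arrays and 312, 348 and 292 on icKO arrays. Signals given before scaling carry this difference between arrays. Between 47.9% and 50.9% of probes were well above background per array, no spot was saturated, and 3 arrays per group limit the precision. Pairs of arrays correlated at 0.988 to 0.991 across features among controls, at 0.985 to 0.989 among icKO and at 0.945 to 0.956 across groups. The probe that stands for Tead1 gave 3.92 ± 0.12 in controls and 3.52 ± 0.12 in icKO (SD, n = 3 each), a log2 difference of -0.40 ± 0.11 (SE; limma adjusted p = 0.0305). Where it lies relative to the deleted part is not known here, so it does not check the labels. The other 2 Tead1 probes differed by -0.43 and -0.19 in a separate limma fit over all 26169 kept probes (adjusted p = 0.0205 and 0.251). In that fit the probe that stands for Tead1 had an adjusted p of 0.0309. The call was lost under 10 of 19 other settings, among them spike-in scaling (0.04), median scaling (-0.24), the authors' deposited values (adjusted p = 0.0503), no filter (adjusted p = 0.122), slide row as a term (adjusted p = 0.0643), and leaving out control replicate 1 (-0.35) or 3 (-0.38) or icKO replicate 2 (-0.36) or 3 (-0.37). All 8 cardiomyocyte markers listed were well above background on every array.

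Among the KLFs, 3 rose in icKO ventricles (Klf15, Klf13 and Klf6), none fell, 5 did not pass and Klf5 was too dim to test. These 3 of 8 stand against 15.9% of all features called higher and 44.3% called in either direction. By limma's unadjusted p, 5 of 8 were higher at the same threshold and none lower, against 19.3% and 34.2% of all features. In 5 of 8 the icKO arrays all lay above the controls, against 21.5% of all features, and none lay wholly below, so 5 of 8 were apart in either direction against 59.1%. The members' median difference was 0.54, from -0.16 for Klf3 to 0.92 for Klf10, and every tested member was well above background on all 6 arrays.

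**Figure D1:**
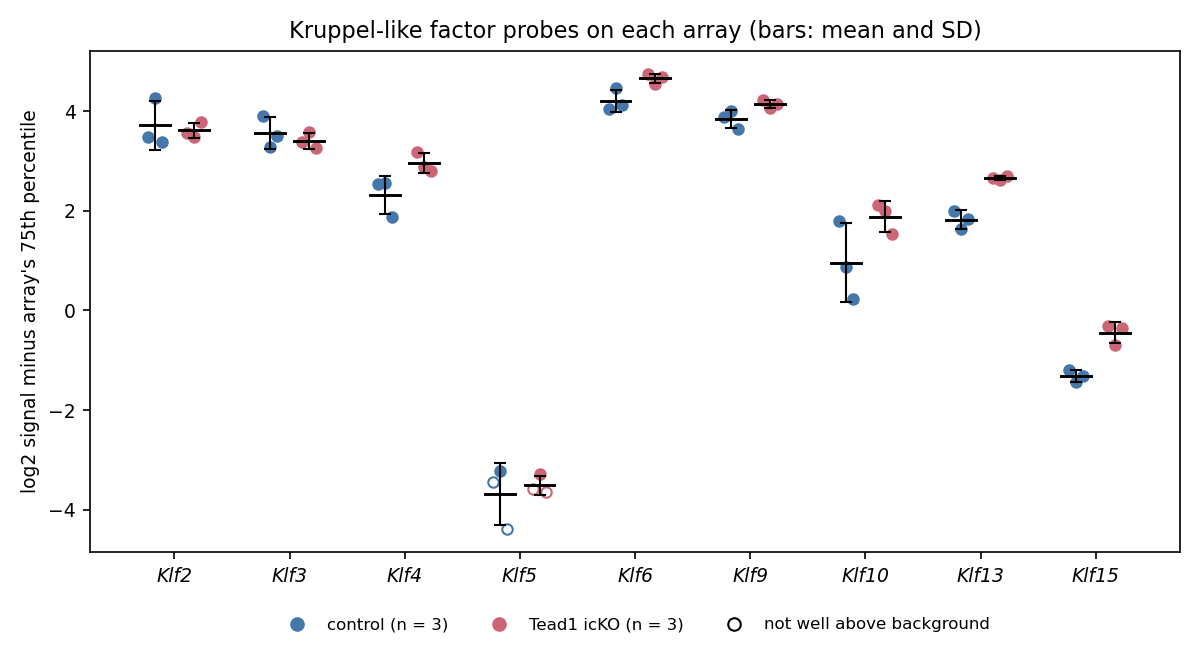
Level of each KLF probe on each array (log2 processed signal minus the array's 75th percentile), with controls in blue and Tead1 icKO in red, 3 arrays each, and mean and SD in black. The icKO points of Klf4, Klf6, Klf9, Klf13 and Klf15 lie above all their controls, and open points of Klf5 are not well above background.

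Klf15 rose 1.82-fold (95% confidence interval 1.45 to 2.29). This factor is known to promote amino acid breakdown and fatty acid use and to restrain growth of cardiomyocytes. Its probe, A_55_P2022049, read a processed signal of 82.4, 86.2 and 86.3 on the control arrays and 251, 215 and 229 on the icKO arrays before scaling. On the scaled log2 axis controls gave -1.20, -1.43 and -1.32, and icKO gave -0.31, -0.69 and -0.35. The groups were separated by 0.51, more than the spread of either. The log2 difference was 0.86 ± 0.14 (SE, n = 3 and 3; limma adjusted p = 0.00411), and 8.53% of features had a larger rise. It stayed called under all 19 other settings tried, between 0.57 with normexp background correction and 1.31 with spike-in scaling. Not all of these could move a member. Averaging a gene's probes and keeping outlier spots cannot change the difference of a gene read by 1 probe of 1 spot. The settings on the filter for dim probes could alter only its SE and p.

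Klf13 rose by a similar amount, 1.78-fold (95% confidence interval 1.46 to 2.18). It is a member that recruits the Sin3 corepressor and has a known part in heart development. Probe A_55_P2022082 gave 2.0, 1.63 and 1.83 in controls and 2.66, 2.61 and 2.69 in icKO. The icKO values lay within 0.079 of each other, and the lowest of them was 0.61 above the highest control. The log2 difference was 0.84 ± 0.12 (SE; limma adjusted p = 0.0029), called under all 19 settings, from 0.74 without control replicate 2 to 1.28 with spike-in scaling.

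Klf6 rose 1.37-fold (95% confidence interval 1.09 to 1.73), the smallest of the 3 rises. It is an early response gene of injured tissue. Controls gave 4.03, 4.46 and 4.11 on probe A_51_P451346 and icKO 4.74, 4.55 and 4.68, so the groups did not overlap, but control replicate 2 came within 0.092 of the lowest icKO array. The log2 difference was 0.45 ± 0.14 (SE; limma adjusted p = 0.0383). Klf6 no longer passed when control replicate 1 (0.37, adjusted p = 0.103) or 3 (0.41, adjusted p = 0.111) was left out, nor when icKO replicate 1 (0.41, adjusted p = 0.0921), 2 (0.51, adjusted p = 0.0592) or 3 (0.44, adjusted p = 0.0964) was. Nor did it pass once dim probes were all kept (adjusted p = 0.134).

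Klf4 and Klf9 were above every control on all icKO arrays without passing the threshold. Klf4, an early response gene that is also known in endothelium and smooth muscle, gave 2.53, 2.55 and 1.88 in controls and 3.19, 2.88 and 2.80 in icKO. Control replicate 3 was the low one, and the icKO values began 0.25 above the highest control. The log2 difference was 0.64 ± 0.21 (SE), with a 95% confidence interval of 0.12 to 1.15 and a limma adjusted p of 0.0520. It was called under 9 of 19 other settings, among them quantile normalization (0.69, adjusted p = 0.0457), the authors' deposited values (0.68, adjusted p = 0.0464) and scaling to spike-ins (1.08, adjusted p = 0.0120). It was not called on leaving out any 1 array (adjusted p = 0.0578 to 0.131), and without control replicate 3 the difference was 0.42.

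Klf9, which glucocorticoids induce in many tissues, gave 3.88, 4.0 and 3.65 in controls and 4.22, 4.07 and 4.15 in icKO. The gap between the groups was 0.061, less than the spread within either. The log2 difference was 0.30 ± 0.12 (SE), with a 95% confidence interval of 0.01 to 0.59 and a limma adjusted p of 0.0877. It was called with normexp (0.44, adjusted p = 0.0109), median scaling (0.46, adjusted p = 0.0278), spike-in scaling (0.74, adjusted p = 0.0204) and trend and robust eBayes (0.30, adjusted p = 0.0451).

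Klf10 had the largest difference of the members and the widest spread. Controls gave 1.79, 0.86 and 0.23, a range of 1.56, and icKO gave 2.10, 2.0 and 1.52. Control replicate 1 lay above icKO replicate 3, so the groups overlapped. The log2 difference was 0.92 ± 0.40 (SE), with a 95% confidence interval of -0.04 to 1.88 and a limma adjusted p of 0.105. Without control replicate 1 it was 1.33 (adjusted p = 0.0186), and without control replicate 3 it fell to 0.55. A call also came with normexp (0.88, adjusted p = 0.0421) and when arrays were scaled to spike-ins (1.36, adjusted p = 0.0170).

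Klf2 and Klf3 gave small differences with overlapping groups. Klf2, the flow-responsive factor of endothelium, gave 3.48, 4.27 and 3.39 in controls and 3.57, 3.48 and 3.78 in icKO. Control replicate 2 was above all other arrays, and the difference of -0.10 ± 0.25 (SE; limma adjusted p = 0.760) became 0.18 without it. The 95% confidence interval ran from -0.70 to 0.50. Klf3, a repressor that binds CtBP, gave 3.90, 3.28 and 3.51 in controls and 3.39, 3.57 and 3.25 in icKO, a difference of -0.16 ± 0.18 (SE; 95% confidence interval -0.60 to 0.28; limma adjusted p = 0.507). Without control replicate 1, the high one, it was 0.01. These intervals do not show that either gene was unchanged.

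Klf5, known in smooth muscle and fibroblasts and as a regulator of Ppara in cardiomyocytes, was read by a dim probe. It was well above background only on control replicate 2 and icKO replicate 2, and so it was not tested in the comparison. Before scaling the control arrays read 17.4, 25.0 and 10.2, and the icKO arrays 25.9, 35.5 and 23.2, which after scaling became -3.44, -3.22 and -4.40 against -3.59, -3.29 and -3.65. The scaled groups overlapped. The means differed by 0.17, with no test.

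The remaining KLFs and the related SP factors were given beside them. Of 8 other KLF genes 4 were tested, none was called higher and Klf12 was called lower, against 15.9% and 28.4% of all features. Klf12, a CtBP-binding repressor, gave -0.23, 0.10 and -0.24 in controls and -0.89, -1.07 and -0.90 in icKO. Its log2 difference was -0.83 ± 0.13 (SE; limma adjusted p = 0.00376), with no overlap, and that call was lost with spike-in scaling (-0.39, adjusted p = 0.186). Klf7 differed by 0.05 ± 0.10, Klf11 by 0.68 ± 0.51 and Klf16 by 0.27 ± 0.16 (limma adjusted p = 0.720, 0.315 and 0.203). Klf11 was well above background on 2 of 3 control arrays. Its difference was 0.09 without control replicate 3 and -0.05 with normexp, and that of Klf16 was 0.11 without icKO replicate 3 and -0.02 with normexp. Klf1, Klf8, Klf14 and Klf17 were too dim to test. Among 9 SP genes 3 were tested, Sp1, Sp2 and Sp4, with differences of 0.03, -0.01 and -0.01, none called (limma adjusted p = 0.802 to 0.965). With spike-in scaling Klf16 (0.71, adjusted p = 0.0240) and Sp1 (0.48, adjusted p = 0.0435) were called higher.

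**Figure D2:**
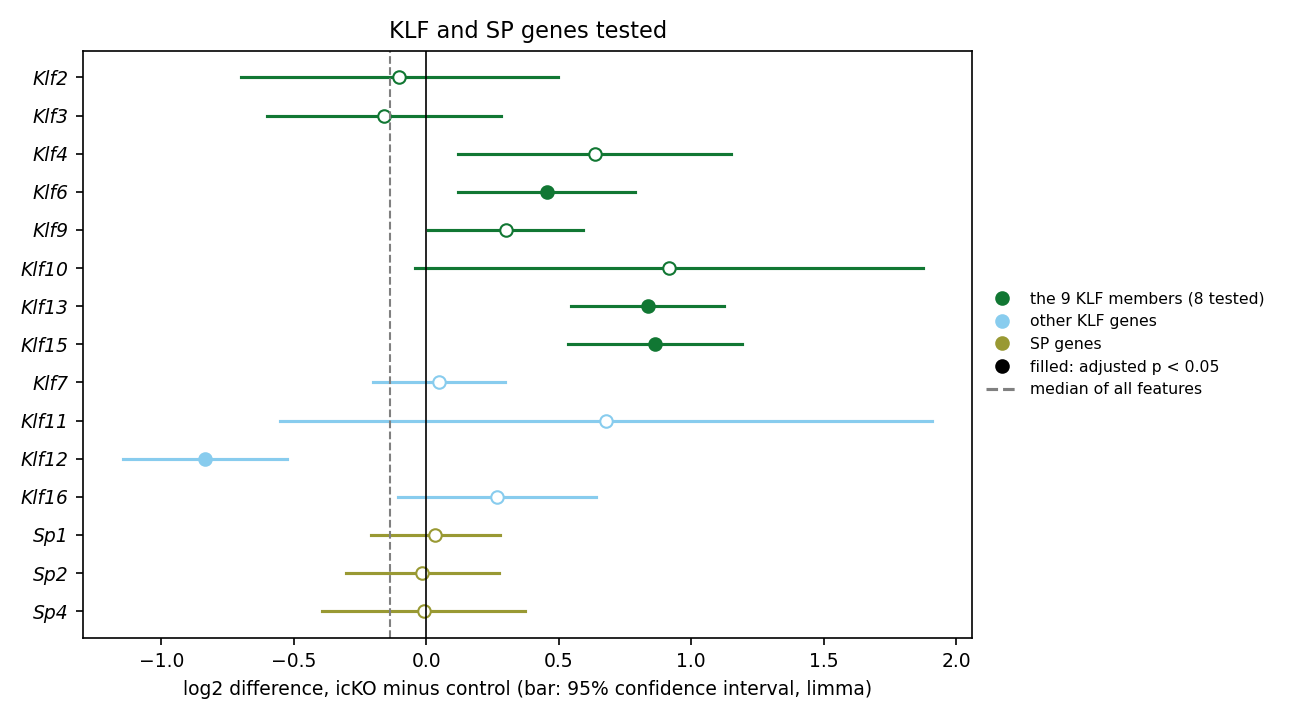
Log2 difference, icKO minus control, of each tested KLF and SP gene with its 95% confidence interval, filled where the adjusted p is below 0.05 and with the median of all features (-0.14) as a dashed line. Klf6, Klf13 and Klf15 are filled to the right of 0, Klf12 is filled to the left, and Klf10 and Klf11 have the widest intervals.

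The size of these differences moved with the scaling between arrays. Scaling to the array median moved the median feature by 0.16, and scaling to the Agilent spike-in probes, which are added to the labelling reaction in equal amount, moved it by 0.44. Spike-in scaling rested on 5 probes. Their mean log2 signal was 9.17, 9.05 and 9.19 on control arrays and 9.21, 9.47 and 9.14 on icKO arrays. With spike-in scaling 6 members were called higher (Klf4, Klf6, Klf9, Klf10, Klf13 and Klf15) and none lower. Of all 22297 features 7020 were then called higher and 1610 lower. Thus 81.3% of calls over all features were higher with spike-in scaling, against 35.8% with the percentile and 54.6% with the median. Klf2 and Klf3 turned positive there (0.34 and 0.28) without passing. Klf13 and Klf15 were called under each of these scalings.

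**Figure D3:**
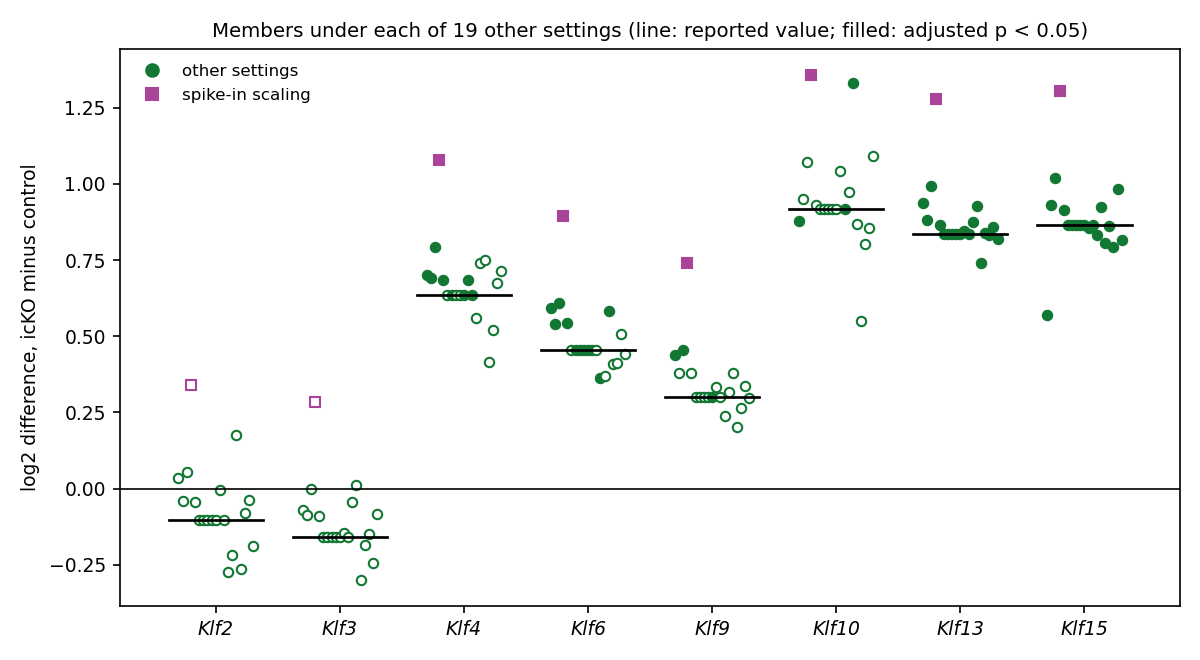
Log2 difference, icKO minus control, of the 8 tested members under each of 19 other settings, filled where the adjusted p is below 0.05, with the reported value as a black line and spike-in scaling as a square. Klf13 and Klf15 are filled throughout, and Klf2 and Klf3 lie on both sides of 0 and are never filled.

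Genes that act on KLF proteins or on KLF transcription were read against 15.9% of all features called higher and 28.4% called lower. Of 9 cofactors, Hdac2 and Crebbp were lower by 0.76 ± 0.16 and 0.45 ± 0.10 on the log2 scale (SE; limma adjusted p = 0.00996 and 0.0116) and the other 7, among them Ctbp1, Ctbp2, Sin3a and Ep300, did not pass (list median 0.11). Hdac2 is a deacetylase of the Sin3 complex and Crebbp an acetyltransferase. The Hdac2 probe was dim, well above background on 2 of 3 icKO arrays, and its difference was -0.50 with normexp. The Hdac2 call was lost with spike-in scaling (-0.32, adjusted p = 0.111), and that of Crebbp with spike-in scaling (-0.01, adjusted p = 0.979), with median scaling (-0.29, adjusted p = 0.104) and with no filter (adjusted p = 0.0651). Of 6 ubiquitin ligase genes known for KLF proteins, Fbxw7 and Vhl were lower, by 0.53 ± 0.17 and 0.31 ± 0.10 (limma adjusted p = 0.0447 and 0.0479), and the list median was -0.33. Each call was lost under 13 of 19 other settings. The difference of Fbxw7 was -0.04 (adjusted p = 0.812) when the gene's probes were averaged, and -0.09 (adjusted p = 0.752) with spike-in scaling, and that of Vhl was 0.13 with spike-in scaling. Both calls were also lost on leaving out any 1 of the controls, icKO replicate 2 or icKO replicate 3, where Fbxw7 lay between -0.61 and -0.42 and Vhl between -0.33 and -0.25.

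Of the ERK5 kinase pathway and the MEF2 factors, which act upstream of Klf2 and Klf4, 7 of 8 genes were tested. Mef2c and Mef2d fell, by 0.72 ± 0.12 and 0.45 ± 0.13 on the log2 scale (SE; limma adjusted p = 0.00431 and 0.0327), and Mapk7, which encodes ERK5, differed by 0.26 ± 0.10 without passing (adjusted p = 0.0856). With spike-in scaling neither MEF2 call held (-0.28 and -0.01). Mef2d also failed to pass when control replicate 2 (-0.42) or 3 (-0.38) or icKO replicate 2 (-0.38) or 3 (-0.48) was left out, with median scaling (-0.30, adjusted p = 0.116) and with no filter (adjusted p = 0.121). The list median was -0.02.

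Genes that glucocorticoids commonly induce, as they do Klf9 and Klf15, mostly rose. Of 12 listed, the receptor Nr3c1 included, 7 rose, 2 fell and 3 did not pass, with a median of 1.01 against -0.14 for all features. Over all features 15.9% were called higher and 28.4% lower. Fkbp5, a chaperone of the receptor, gave 2.72, 2.53 and 2.35 in controls and 4.37, 3.97 and 4.0 in icKO, a rise of 1.58 ± 0.15 (SE; limma adjusted p = 0.000875). The metallothionein gene Mt2 rose by 1.79 ± 0.14 (adjusted p = 0.00045), and Tsc22d3, Per1, Sgk1, Ddit4 and Errfi1 were the other members called. Nr3c1 itself was lower by 0.42 ± 0.09 (adjusted p = 0.011), which turned to 0.025 with spike-in scaling and did not pass with median scaling (-0.26, adjusted p = 0.157). Pdk4, a kinase that inhibits pyruvate dehydrogenase, was lower by 0.98 ± 0.30 (adjusted p = 0.0395), and did not pass when control replicate 1 (-0.99) or 2 (-0.73) or icKO replicate 2 (-0.95) or 3 (-0.78) was left out. It also missed the threshold with spike-in scaling (-0.54), quantile normalization (adjusted p = 0.0846), median scaling (adjusted p = 0.0530), the authors' deposited values (adjusted p = 0.0743) and no filter (adjusted p = 0.119). With spike-in scaling 10 of the 12 were higher and none lower. No steroid level was measured, and whether glucocorticoid signalling has a part in the Klf15 difference was not tested.

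Genes reported to be raised by Klf15 fell in the hearts where Klf15 was higher. Of 8 listed, 7 were tested, 6 fell and none rose, with a median of -1.14 against -0.14 for all features. The shares over all features were 28.4% lower and 15.9% higher. Kcnip2, a potassium channel subunit, gave 1.13, 1.55 and 1.12 in controls and -2.81, -2.78 and -3.62 in icKO, where 2 of 3 arrays were well above background, a difference of -4.34 ± 0.26 (SE; limma adjusted p = 0.000228). Prodh, the first enzyme of proline breakdown, gave 3.34, 3.28 and 3.21 in controls and 0.68, 0.94 and 0.75 in icKO, a difference of -2.49 ± 0.11 (adjusted p = 0.000115). Gpt and Bcat2, aminotransferases, Slc2a4, the insulin-responsive glucose transporter, and Slc25a20, the mitochondrial carnitine carrier, were the other 4 that fell, and Tat did not pass. With spike-in scaling 5 fell and none rose.

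Genes reported to be held down by Klf15 went both ways. Of 4 tested, 1 was called higher and 2 lower, against 15.9% and 28.4% of all features. Ccn2, a secreted matricellular protein, gave 4.21, 3.39 and 3.50 in controls and 7.33, 7.10 and 7.49 in icKO, a rise of 3.61 ± 0.24 (SE; limma adjusted p = 0.000301). Skeletal alpha-actin Acta1 was lower by 2.69 ± 0.32 (adjusted p = 0.00158) and the natriuretic peptide gene Nppb by 1.79 ± 0.54 (adjusted p = 0.0371). Nppb did not pass when control replicate 1 (-1.35) or 3 (-1.58) or any 1 of the icKO arrays (-1.73, -1.76 and -1.89) was left out, and missed the threshold under 9 of 19 other settings in all. Nppa did not pass.

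Of genes that Klf2 and Klf4 are reported to raise in endothelium, Nos3, Thbd, S1pr1 and Ptgds, none was called, against 44.3% of all features. The list median was 0.06. Of genes that Klf2 and Klf4 are reported to hold down, 2 of 3 tested rose, against 15.9% of all features called higher. The adhesion molecule gene Vcam1 gave 1.47, 1.33 and 1.45 in controls and 2.72, 2.68 and 2.65 in icKO, a rise of 1.26 ± 0.09 (SE; limma adjusted p = 0.000353). The endothelin gene Edn1 rose by 1.72 ± 0.17 (adjusted p = 0.000827), while Ccl2 did not pass and Sele was too dim to test. Of 4 genes reported to be raised by Klf5, Ppara fell by 0.68 ± 0.13 (adjusted p = 0.00768), Pdgfa was lower by 0.39 ± 0.12 (adjusted p = 0.0412), Igf1 was higher by 0.75 ± 0.22 (adjusted p = 0.0337) and Myh10 did not pass. The Ppara call was lost with spike-in scaling (-0.24, adjusted p = 0.228). Pdgfa did not pass without control replicate 1 or 3 or icKO replicate 2 or 3 (-0.38 to -0.32), and Igf1 did not without control replicate 2 or 3 or icKO replicate 2 or 3 (0.58 to 0.74). In all, 12 of 19 other settings lost the Pdgfa call and 6 of 19 the Igf1 call.

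**Figure D4:**
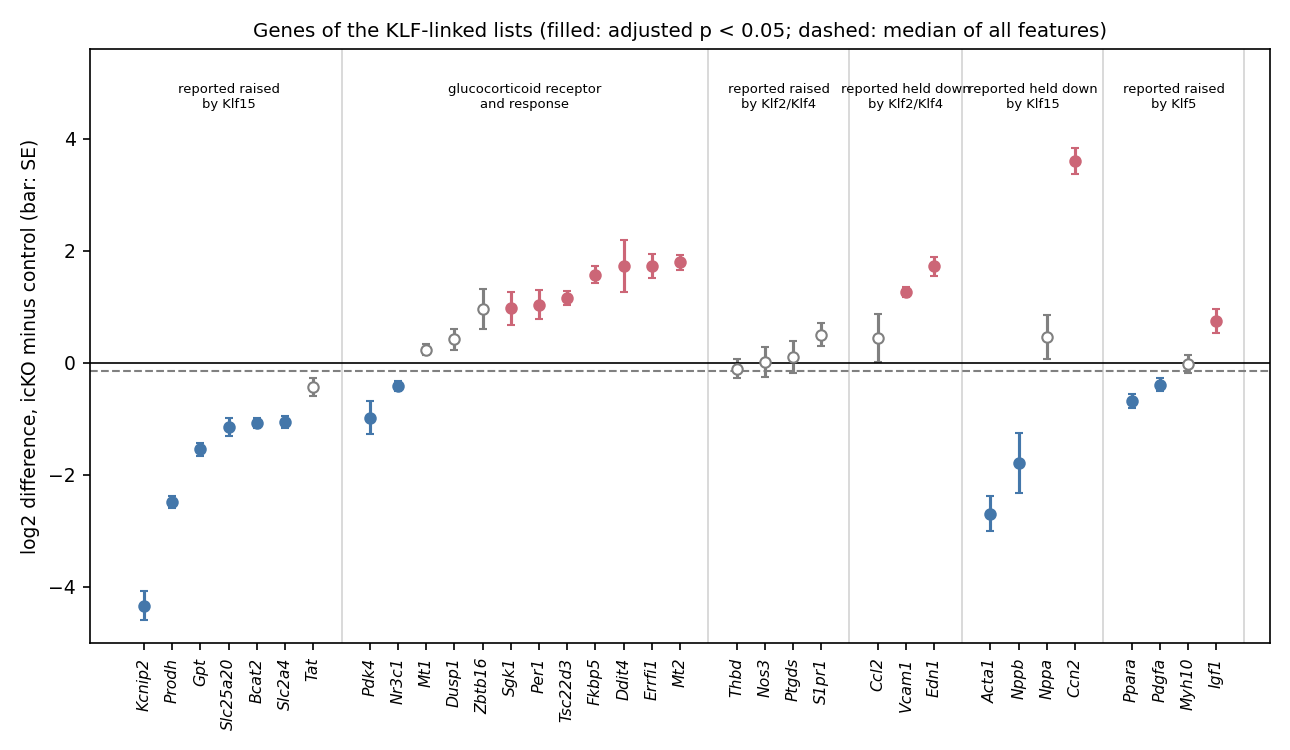
Log2 difference, icKO minus control, with its SE for each tested gene of 6 lists linked to KLFs, red where called higher, blue where called lower and open grey where not called, with the median of all features (-0.14) as a dashed line. Genes reported to be raised by Klf15 lie below 0, with Kcnip2 at -4.34, and most glucocorticoid response genes lie above 0.

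Markers of other cells of the ventricle moved beside the KLFs. Their counts stand against 15.9% of all features called higher and 28.4% called lower. Of 10 fibroblast markers 8 rose and none fell, with a mean level of 2.52 to 3.34 on control arrays and 4.31 to 4.71 on icKO arrays. Of 12 macrophage markers 11 were tested, 10 rose and none fell, from 1.19 to 1.76 in controls to 2.60 to 2.97 in icKO. The 12 endothelial markers had 1 gene higher and 3 lower, with means of 3.04 to 3.21 in controls and 2.96 to 3.31 in icKO, and the 9 smooth muscle and pericyte markers 2 higher and 3 lower, with 1.89 to 2.31 and 1.78 to 2.18. Cardiomyocyte markers were lower for 6 of 8, from 8.75 to 8.88 in controls to 8.20 to 8.36 in icKO, though with spike-in scaling 1 was higher and 1 lower. Of 8 erythrocyte and platelet markers 5 were tested and 1 rose, with means of 2.35 to 2.95 in controls and 2.67 to 5.35 in icKO. The icKO arrays differed widely among themselves here. Their SD was 1.19 for Alas2, 2.35 for Ppbp and 2.81 for Gp9, and 0.52 for Hba-a1 and 0.45 for Pf4. Every tested marker of these lists was well above background on all 6 arrays. In whole ventricle, fewer cells of a type and less RNA per cell cannot be told apart, and the part of these shifts in the KLF differences was not tested.

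The genes whose values over the 6 arrays lay nearest to a member, after each gene's own mean was removed, were sought for Klf10, Klf15 and Klf13 among 12577 named genes. Nearest to Klf15 were Bmp4 and Naglu, with root mean square differences of 0.051 and 0.059 on the log2 scale. Nearest to Klf13 were Jund and Cstb (0.055 and 0.056). Klf10 had no neighbour as close, with Lsr at 0.19 and Smarca1 at 0.20. The choice by nearness to a member fixed the direction and size of these genes' differences, 0.82 and 0.84 for Bmp4 and Naglu and 0.78 and 0.77 for Jund and Cstb, which are given as a description with no test.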

How the data were processed

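RNA from 6 ventricles, 3 biological replicates per group by their labels, was measured on Agilent arrays in 1 colour (Cy3). Per the file headers, the deposited spot intensity is linear and was background-subtracted by Feature Extraction 11.0.1.1 (array design 028005, mm9), while version 9.1 stands in the submitters' processing notes. A value table that the authors deposited gives linear, uncentred intensity with column medians of 18.37 to 18.47. It correlated with each array's log2 signals at 0.9995 or more, and no source used here gives its normalization.

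Processed signals were log2-transformed and the 75th percentile over non-control spots of each array was taken off. Outlier-flagged spots were dropped, unless all spots of a probe on an array were flagged, in which case they were kept. Each KLF probe has 1 spot per array, so no spot of a member could be dropped. Probes well above background on all 3 arrays of a group were kept (26169 of 55681). Names came from RefSeq accessions in a GRCm38.p6 table (26576 probes), and where a gene had several kept probes the brightest was used. The groups were compared by limma 3.58.1 (R 4.3.3). P-values were adjusted by Benjamini-Hochberg over 22297 features, with a threshold of 0.05. Only the limma comparison and this adjustment were tested on simulated data, with a far smaller share of changed features than was called here. The scaling, the filter and the choice of probe were not tested in that way. Each KLF has 1 probe, so a fit over all kept probes used the same values for the members and could differ only in SE and adjustment. Its calls for them were the same, which is no separate check.

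Same-numbered arrays did not deviate together over all features (correlations -0.04, -0.12 and -0.01), and the main fit used no pairing. With 3 arrays per group these correlations cannot exclude a pairing for single genes. All arrays lay on 1 slide with 1 scan time, so no block on these could be fitted. Control replicates 1 to 3 lay in slide columns 1, 1 and 2, and icKO replicates 1 to 3 in columns 2, 3 and 3. Slide column thus largely followed group, the effects of the 2 can hardly be told apart, and column was a term in no setting. Normexp used the median spot signal, since the files give no mean. The named genes are all 9 members, the tested KLF and SP genes, up to 2 higher and 2 lower genes with the smallest p from each list, and the 2 genes nearest in pattern to the 3 members that differed most. Other genes are named only as members of the lists, and 1 listed gene is not reported here and was left out of its list's counts. Members and lists were chosen with earlier results of these data known, and support nothing by their choice.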

Additional observations from a re-analysis of the deposited data

How the results depend on the processing

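Klf13 and Klf15 kept their direction and call under all 19 settings, and no member was called lower under any of them. Averaging a gene's probes or keeping outlier spots could not change a member's difference, since each member has 1 probe of 1 spot. The count of members called higher, 3, became 6 with normexp and with spike-in scaling, and 5 with median scaling and with trend and robust eBayes; leaving out each array gave 2 or 3. Over all features, 3544 calls were higher and 6342 lower, against 7020 and 1610 with spike-in scaling and 2096 and 3943 with no filter on dim probes. The counts were 4358 and 3617 with median scaling, 3622 and 7612 with normexp, and 3745 and 6490 with trend and robust eBayes. With replicate number as a block 4 members were called higher: Klf4 (adjusted p = 0.0412) and Klf10 (adjusted p = 0.0454) were gained and Klf6 was lost (adjusted p = 0.096), and features called were 2748 and 4976; the cause was not tested. Signs turned, without a call, for Klf2 with normexp, median and spike-in scaling (0.036, 0.055 and 0.34), for Klf3 with spike-in scaling (0.28), Klf7 with array weights (-0.00030), and Klf11 and Klf16 with normexp (-0.054 and -0.023). They turned for Sp2 with quantile, median and spike-in scaling (0.0087, 0.14 and 0.43), for Sp4 with these and the authors' table (0.042, 0.15, 0.43 and 0.027), and with spike-in scaling for Vhl (0.13), Nr3c1 (0.025) and Pdgfa (0.055). Leaving out each array gave Klf2 -0.26 to 0.18, Klf3 -0.30 to 0.012, Sp1 -0.0038 to 0.088, Sp2 -0.12 to 0.043 and Sp4 -0.16 to 0.11. Signal over background limits Klf5 and the dim KLF and SP genes.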

Other observations

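The members varied less among icKO arrays than among controls. The SD was smaller in icKO for 7 of the 8 tested members, Klf15 being the exception (0.12 in controls and 0.21 in icKO), while over all features it was smaller in icKO for 45.2%. The largest difference in spread was for Klf10, with an SD of 0.79 in controls and 0.31 in icKO, followed by Klf2 with 0.49 and 0.15. Within the slide rows, each with 1 or 2 arrays of a group, Klf15 differed by 0.57 and 1.1, Klf13 by 0.70 and 1.05, Klf6 by 0.48 and 0.25, and Klf2 by 0.05 and -0.60. The spread was not tested.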
